A study of Mus musculus with 18 samples.

Results

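Synaptic vesicle and release machinery genes were followed in RNA from the mouse substantia nigra, the midbrain region that holds the dopaminergic neurons of the nigrostriatal pathway and, in its reticular part, many GABAergic neurons. The 37 genes were taken by symbol as a set list. All 37 were among the 55269 named rows of the deposited table, and all 37 were among the 19442 genes tested. The 18 libraries came from 3 groups of 6 mice, whose strain is not given in the sources used here. The intact group is labelled as wild type with no treatment. The AAV-GFP group overexpressed green fluorescent protein from an adeno-associated virus (AAV), and the AAV-SIRT3 group overexpressed SIRT3, a mitochondrial deacetylase. All mice were 3 months old, and in the virus groups the tissue was taken about a month after the AAV. The labels name no injection for the intact mice, so comparisons with intact hold the virus and its delivery together with the gene delivered. The promoter and serotype of the virus and the cells it reached are not given in the sources used here.

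Neurotransmitter is stored in synaptic vesicles, which dock at the active zone, fuse with the membrane and are then taken back by endocytosis. Fusion is driven by SNARE proteins, is triggered by calcium through synaptotagmins, and is held ready by complexins and the priming factors of the active zone. Synapsins tether the reserve of vesicles, Rab3 GTPases mark vesicles for docking, and dynamin, synaptojanin and auxilin act in their retrieval. Messenger RNA (mRNA) lies mostly in cell bodies, so the tissue samples the transcripts of the neurons within the dissected piece. It does not sample the proteins of nigral terminals in the striatum.

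The start regions of genes that rose and of genes that fell are shown first. RefSeq (GRCm38.p6) promoter windows were matched for 30 of the 37 genes, and the 250 bases before the start were searched on both strands for 4 motifs, none of which contains another. Unmatched genes were Syngr3, Rims2, Snap25, Vamp2, Syn3, Dnajc5 and Syt4. The stretches below are shown for 4 genes that changed and for Syn1, the single matched member with an RE1-like element. Each reads 5′ to 3′ along the gene's strand and stops before the first exon of GENCODE M21. Capitals mark the GC box GGGCGG or its reverse complement CCGCCC, and in Syn1 they mark the RE1-like element and TGACGTCA, the cyclic AMP response element. The stretches are chr8:70754453-70754678 (plus strand) for Rab3a, chr5:14514668-14514917 (plus) for Pclo, chr13:96132578-96132827 (minus) for Sv2c, chr16:91011309-91011558 (minus) for Synj1, and chrX:20921005-20921168 (minus) for Syn1. Rab3a and Synj1 each have 2 listed windows, of which the first is shown.
Rab3a: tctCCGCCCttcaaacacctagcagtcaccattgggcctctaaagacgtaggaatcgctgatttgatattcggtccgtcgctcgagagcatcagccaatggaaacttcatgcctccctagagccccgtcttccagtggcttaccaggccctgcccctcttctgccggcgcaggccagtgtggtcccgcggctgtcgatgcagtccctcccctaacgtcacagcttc
Pclo: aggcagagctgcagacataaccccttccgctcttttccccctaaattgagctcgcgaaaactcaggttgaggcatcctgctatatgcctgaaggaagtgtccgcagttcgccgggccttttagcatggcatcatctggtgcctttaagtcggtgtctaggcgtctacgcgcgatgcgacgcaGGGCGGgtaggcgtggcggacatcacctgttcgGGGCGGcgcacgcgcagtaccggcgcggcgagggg
Sv2c: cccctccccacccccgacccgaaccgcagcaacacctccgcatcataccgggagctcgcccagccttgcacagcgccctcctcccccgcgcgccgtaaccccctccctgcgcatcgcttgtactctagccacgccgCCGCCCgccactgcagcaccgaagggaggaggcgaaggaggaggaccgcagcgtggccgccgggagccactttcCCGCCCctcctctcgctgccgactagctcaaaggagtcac
Synj1: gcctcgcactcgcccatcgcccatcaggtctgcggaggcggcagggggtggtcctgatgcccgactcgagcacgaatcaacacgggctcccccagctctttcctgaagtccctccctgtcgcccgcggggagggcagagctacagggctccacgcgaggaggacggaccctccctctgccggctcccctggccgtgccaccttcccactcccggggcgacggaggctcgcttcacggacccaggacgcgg
Syn1: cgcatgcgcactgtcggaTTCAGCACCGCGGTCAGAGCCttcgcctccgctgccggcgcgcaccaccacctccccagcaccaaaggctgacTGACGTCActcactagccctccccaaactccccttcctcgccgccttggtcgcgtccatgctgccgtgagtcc

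Rab3a, which rose, and Pclo and Sv2c, which fell, all held the GC box. The window shown for Synj1, which fell, held 0, but its other listed window held the box. Synj1 is therefore counted among the genes with it. The GC box was present in a window of 21 of the 30 matched genes (70.0%), and in 35.4% of the 27025 genes with a window. TATAAA was present in 1 of 30 genes, Sv2b, and in 14.3% of all genes. TGACGTCA was present in 2 of 30, Syn1 and Sh3gl2, and in 1.77% of all genes. The RE1 element, bound by the neuronal gene repressor REST, was searched by its consensus with up to 3 mismatches over 19 fixed letters. Syn1 alone matched among the 30, with 2 mismatches, and 19 of all genes matched (0.0703%). The windows had a median GC content of 61.2% against 52.0% over all genes, and a median CpG ratio (observed over that given by the base content) of 0.68 against 0.38.

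Library totals over all genes lay between 47182420 and 64728400 reads. Values are normalised reads, and fold changes are log2 differences of normalised reads plus 1, from limma, with Benjamini-Hochberg adjustment over all 19442 genes and a threshold of 0.05. Sirt3, the gene delivered, had means of 1824 ± 66.3 normalised reads (SD, n = 6) among intact mice, 1775 ± 92.4 with AAV-GFP and 1937 ± 79.4 with AAV-SIRT3. Its log2 difference between AAV-SIRT3 and AAV-GFP was 0.13 (limma adjusted p = 0.183), so the label of the virus was not separated by this gene at the threshold. The sequence carried by the virus is not given in the sources used here, so whether its transcript is counted under Sirt3 is unknown. Markers of the nigra were present in all 18 libraries: Th, the enzyme that commits tyrosine to dopamine, was at 3673 to 6637 normalised reads, Slc6a3, the dopamine transporter, at 6087 to 12867, and Gad1, a GABA-synthesising enzyme, at 20736 to 30572. A list of 11 thalamus markers was also present, with a summed level of 39687 to 94848 in intact, 78175 to 90316 in AAV-GFP and 72257 to 101110 in AAV-SIRT3 libraries. Intact replicates 1, 3 and 5 were the low ones, with Prkcd, a thalamic marker, at 7651, 7763 and 9445 normalised reads against 18060 to 26600 in the other 15 libraries. In such bulk tissue, fewer cells of a type and less RNA per cell cannot be told apart.

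In intact nigra the machinery spanned a wide range of levels per kilobase (kb) of merged exon. Cplx1, a complexin that clamps and promotes fusion, was highest at 22004 ± 2494 normalised reads per kb, followed by Snap25, a SNARE of the plasma membrane, at 18071 ± 1872. These neighbours overlapped within their spread. Rab3a, the main Rab GTPase of synaptic vesicles, followed at 12184 ± 414, and Vamp2, the vesicle SNARE synaptobrevin, at 11396 ± 571. Active zone scaffolds were far lower: Pclo (piccolo) was at 671 ± 32.8 and its paralog Bsn (bassoon) at 650.4 ± 47.3 normalised reads per kb. Lowest were the priming factor gene Unc13b at 77.7 ± 9.31 and Syn3, which encodes synapsin III, at 71.2 (coefficient of variation 19.7%), a pair that also overlapped. All these errors are SDs of 6 libraries, and merged exon length overstates the length of mRNAs with alternative ends.

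**Figure D1:**
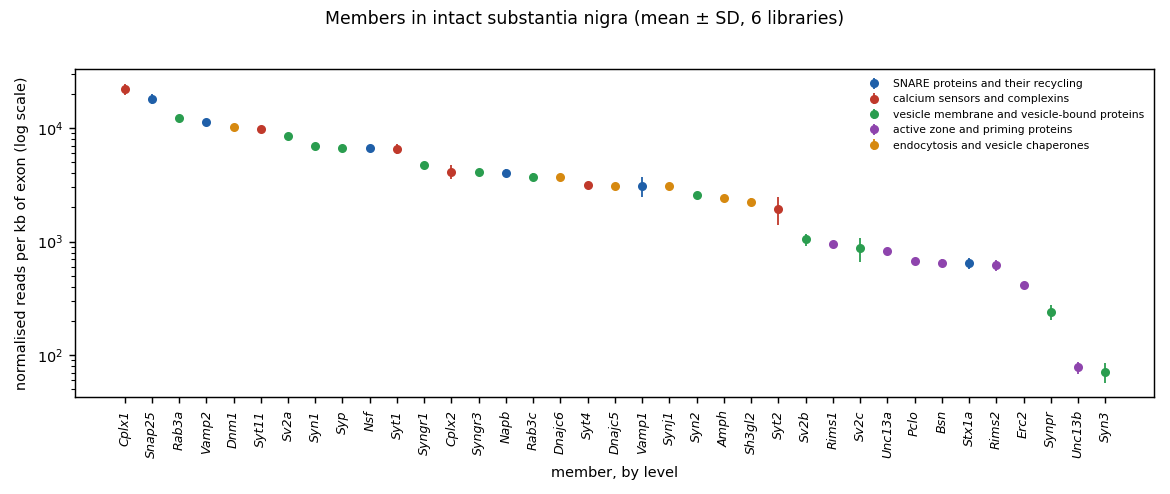
Levels of the 37 genes in intact substantia nigra, as normalised reads per kb of merged exon on a log scale, ordered by level and coloured by role; points are means and bars SDs of 6 libraries. Cplx1 and Snap25 lead at 22004 and 18071, and the 7 active zone genes all lie right of Sv2b, with Unc13b and Syn3 last at 77.7 and 71.2.

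Between AAV-SIRT3 and intact mice, 4 of the 37 genes rose and 4 fell, while 29 did not pass. Rab3a, Vamp2, Syngr3 and Syp, which encode a vesicle GTPase, the vesicle SNARE and a pair of abundant vesicle membrane proteins, rose by 8.89% to 15.8%. The mean level of Syn3, a synapsin gene, fell by 33.0%, that of the active zone gene Pclo fell by 23.3%, that of the vesicle glycoprotein gene Sv2c fell by 20.3%, and that of the lipid phosphatase gene Synj1 fell by 11.8%. Across all tested genes 21.7% passed in this comparison, with 11.3% higher and 10.3% lower, so the 21.6% of the list that passed is the background share. The median log2 difference of the list was -0.01 and that of all genes -0.005. Differences were above 0 for 16 genes and below 0 for 21.

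AAV-GFP mice differed from intact mice in 2 of the 37 genes, Sv2c and Syn3, both lower, where 1.84% of all tested genes passed and 1.02% were lower. Here 13 of the 37 differences were above 0 and 24 below, and the median was -0.05. Between AAV-SIRT3 and AAV-GFP mice 0 of the 37 passed by limma, where 0.113% of all genes did. At an unadjusted p under 0.05 there were 5 of 37, against 15.2% of all genes, namely Syn2, Syngr3, Rab3a, Syp and Syngr1, all higher with AAV-SIRT3. Of the 37 differences 24 were above 0 and 13 below, with a median of 0.05. edgeR called 0, where it called 0.123% of all genes, and DESeq2 called 2 of the 37, Syn2 and Syngr3, where DESeq2 called 1.59% of all genes. Without AAV-GFP replicate 2, limma called 3, Syn2, Syngr3 and Rab3a, where it called 4.43% of all genes. The 3 comparisons share libraries in pairs, so their values are given side by side and do not support each other.

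**Figure D2:**
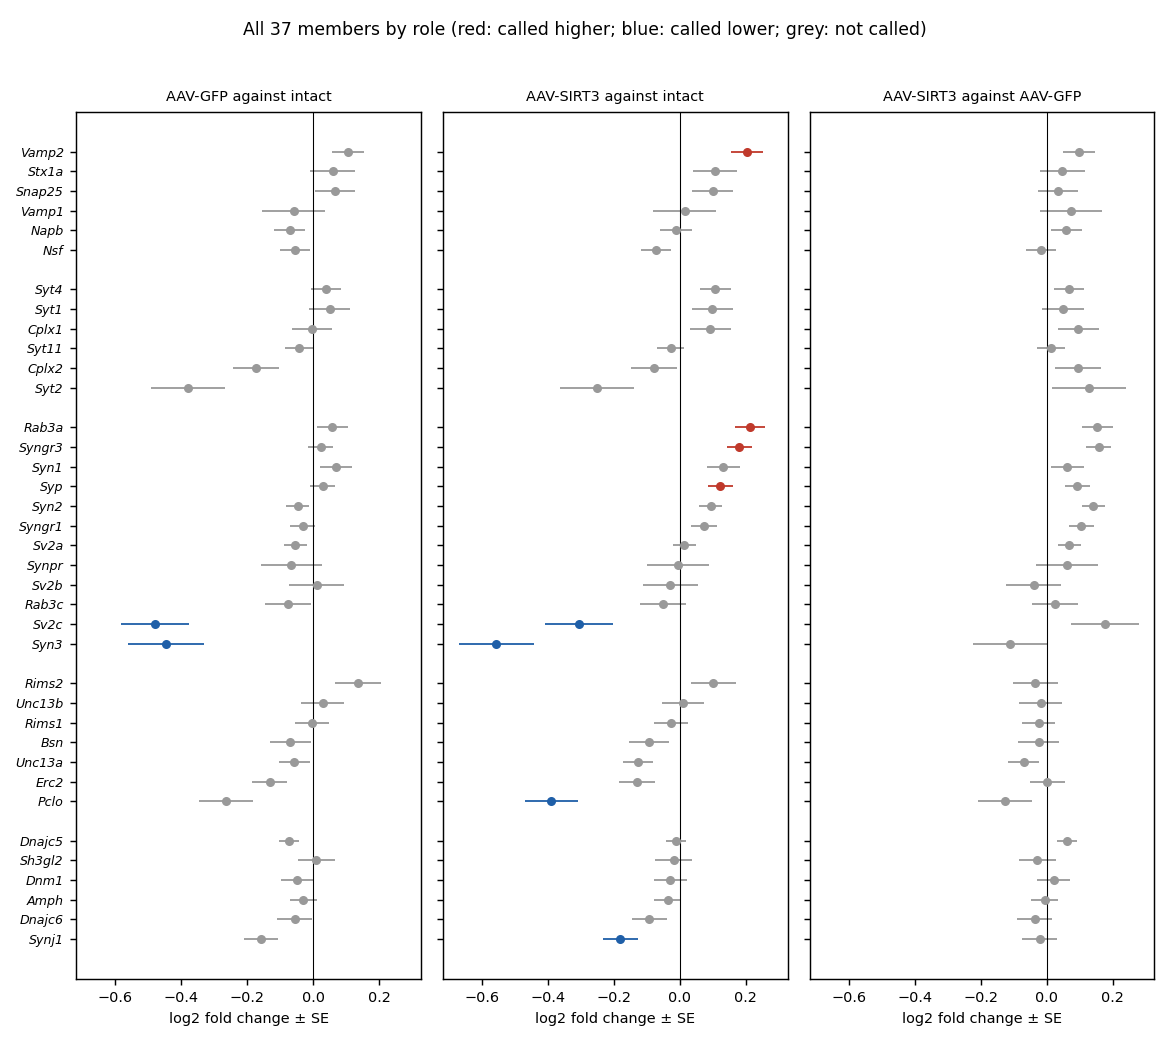
Log2 fold change (horizontal axis) of the 37 genes in the 3 comparisons, grouped by role from SNARE proteins at the top to endocytosis genes at the bottom; bars are standard errors from limma over 18 libraries. Coloured points passed the threshold: Sv2c and Syn3 in the left panel, 8 genes in the middle panel, and 0 in the right panel.

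In GENCODE M21 (GRCm38) the genes that changed are spread over 8 chromosomes: Rab3a lies at chr8:70754679-70758677, Vamp2 at chr11:69088490-69092384, Syngr3 at chr17:24685092-24689955 and Syp at chrX:7638471-7653256. Syn3 lies at chr10:86055125-86498896, Pclo at chr5:14514918-14863459, Sv2c at chr13:95954594-96132577 and Synj1 at chr16:90936092-91011308. Each value below is 1 number per gene, so isoforms of a gene were not told apart.

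Among the 6 genes of SNARE proteins and their recycling, Vamp2 was the single one to change. This was between AAV-SIRT3 and intact, where 21.7% of all tested genes passed. Vamp2 ran from 39815 to 45885 normalised reads in intact libraries (median 43792), from 40895 to 50465 in AAV-GFP (median 46689) and from 46830 to 52916 in AAV-SIRT3 (median 49868). All 6 AAV-SIRT3 libraries lay above all 6 intact libraries, as in 5.01% of all tested genes, and the AAV-GFP libraries spanned both. Its log2 difference was 0.20 ± 0.05 (SE) for AAV-SIRT3 against intact (limma adjusted p = 0.0058), 0.11 for AAV-GFP against intact (adjusted p = 0.24) and 0.10 for AAV-SIRT3 against AAV-GFP (adjusted p = 0.337). With the thalamus score as a covariate the AAV-SIRT3 difference was 0.14 and no longer passed (adjusted p = 0.14). Vamp1, the paralog used by fast-firing brainstem and motor neurons, ran from 26442 to 43054 in intact libraries (median 29615), from 26805 to 32587 in AAV-GFP (median 29481) and from 25924 to 34382 in AAV-SIRT3 (median 32873). These ranges overlapped, and the AAV-SIRT3 against intact difference was 0.01 (adjusted p = 0.935). The plasma membrane SNARE genes Snap25 and Stx1a differed by 0.10 (adjusted p = 0.258) and 0.11 (adjusted p = 0.27) in that comparison. Nsf, the ATPase that takes SNARE complexes apart, and its adaptor gene Napb differed by -0.07 and -0.01.

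The 6 genes of calcium sensors and complexins held none that passed in any of the 3 comparisons by limma. Of all tested genes, 21.7% passed in AAV-SIRT3 against intact, 1.84% in AAV-GFP against intact and 0.113% between the virus groups. Syt2, the fast calcium sensor synaptotagmin-2, ran from 11746 to 22751 normalised reads in intact libraries (median 13413), from 10105 to 12043 in AAV-GFP (median 11116) and from 9682 to 13569 in AAV-SIRT3 (median 12335). Intact replicate 1 stood alone at the top, and the other 5 intact libraries, at 11746 to 14346, overlapped with AAV-GFP. Against intact, its log2 difference was -0.38 ± 0.11 with AAV-GFP (limma adjusted p = 0.0732) and -0.25 with AAV-SIRT3 (adjusted p = 0.113). Without intact replicate 1 these differences were -0.25 (adjusted p = 0.0783) and -0.12 (adjusted p = 0.249), and without intact replicate 2 the first passed at -0.44 (adjusted p = 0.0405). With a pan-neuronal score as a covariate, Syt2 passed in both, at -0.38 (limma adjusted p = 0.0036) and -0.43 (limma adjusted p = 0.0014). Apart from fits that leave out a library, this was 1 of 13 other settings, and Syt2 passed in no other. Over those 13 the differences from intact ran from -0.42 to -0.17 with AAV-GFP and from -0.43 to -0.04 with AAV-SIRT3. Syt11, a synaptotagmin that does not bind calcium, ran from 47468 to 56589 in intact, 46774 to 51921 in AAV-GFP and 48143 to 54232 in AAV-SIRT3 libraries, with medians of 50626, 49696 and 49564. Its groups overlapped almost entirely, and its AAV-SIRT3 against intact difference was -0.03 (adjusted p = 0.665). Syt1, the main calcium sensor of fast release, differed by 0.10, Syt4, a synaptotagmin of dense-core vesicles, by 0.11 (adjusted p = 0.101), and the complexin genes Cplx1 and Cplx2 by 0.09 and -0.08 in the same comparison.

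Of the 12 genes of vesicle membrane and vesicle-bound proteins, 3 rose and 2 fell between AAV-SIRT3 and intact. Of all tested genes, 11.3% were higher and 10.3% lower in this comparison. These 12 held the largest rise (Rab3a) and the largest fall (Syn3) of the 37. Rab3a ran from 25616 to 28358 normalised reads in intact libraries (median 27199), from 24510 to 30522 in AAV-GFP (median 29033) and from 30655 to 32990 in AAV-SIRT3 (median 31233). Every AAV-SIRT3 library exceeded every intact and every AAV-GFP library, while AAV-GFP spread on both sides of intact. The log2 difference was 0.21 ± 0.05 against intact (limma adjusted p = 0.0034) and 0.15 ± 0.05 against AAV-GFP (adjusted p = 0.144). Groups free of overlap in this direction made up 5.01% of all genes in the first of these comparisons and 0.37% in the second. Syngr3, a vesicle membrane protein known to bind the dopamine transporter, ran from 7918 to 8901 in intact (median 8440), from 8012 to 9341 in AAV-GFP (median 8526) and from 9083 to 10013 in AAV-SIRT3 libraries (median 9564). All AAV-SIRT3 libraries were above all intact ones, and 1 of the AAV-GFP libraries reached into their range. Its difference was 0.18 ± 0.04 against intact (adjusted p = 0.003) and 0.16 ± 0.04 against AAV-GFP (adjusted p = 0.104).

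Syp, which encodes synaptophysin, a major protein of the vesicle membrane, ran from 33565 to 36531 normalised reads in intact (median 34905), from 33380 to 37271 in AAV-GFP (median 36017) and from 34929 to 40240 in AAV-SIRT3 libraries (median 38475). A single AAV-SIRT3 library, replicate 4, lay within the intact range. Its difference of 0.12 ± 0.04 against intact passed (limma adjusted p = 0.0278), but not when any of intact replicates 3, 4 and 5 or AAV-SIRT3 replicates 2, 3 and 5 was left out. It was also lost with a thalamus score (0.09, adjusted p = 0.251) or a pan-neuronal score (0.10, adjusted p = 0.079) as a covariate. Syn1 and Syn2, the main synapsin genes, had log2 differences of 0.13 (adjusted p = 0.0596) and 0.09 (adjusted p = 0.0597) against intact and did not pass. Syn2 was at 16803 to 18365 in AAV-GFP and 18457 to 19994 in AAV-SIRT3 libraries, which did not overlap, with a difference of 0.14 (adjusted p = 0.105). Of all tested genes, 0.37% had AAV-SIRT3 wholly above AAV-GFP. Syngr1, Rab3c and Synpr, the paralogs of Syngr3, Rab3a and Syp, differed from intact by 0.07, -0.05 and -0.005.

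Syn3, the synapsin gene with the lowest level per kb, ran from 714 to 1184 normalised reads in intact libraries (median 862), from 452 to 788 in AAV-GFP (median 652) and from 558 to 635 in AAV-SIRT3 (median 580). The highest AAV-SIRT3 library was below the lowest intact library, as it was in 4.32% of all genes, and AAV-GFP overlapped with both groups. Its log2 difference was -0.56 ± 0.11 for AAV-SIRT3 against intact (limma adjusted p = 0.0023) and -0.45 ± 0.11 for AAV-GFP against intact (adjusted p = 0.0465). The first passed with each of the 18 libraries left out in turn, and the second in 5 of those 18 fits. In the 13 other settings the first passed in 12 and the second in 9. The second was lost with all genes above 0 tested, the thalamus score, the length trend removed, or only the 2 groups fitted. With the thalamus score as a covariate the first was -0.42 (adjusted p = 0.0617). Syn3 shares 1733 exon bases with Timp3 on the opposite strand, and Timp3, a metalloproteinase inhibitor, was also lower in AAV-SIRT3 than in intact, by 0.25 on the log2 scale (adjusted p = 0.0045). The strand setting of the count is not given in the sources used here, so reads of these genes may not be separated.

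Sv2c, the SV2 vesicle glycoprotein isoform most typical of the basal ganglia, ran from 6783 to 12324 normalised reads in intact libraries (median 7917), from 5279 to 6538 in AAV-GFP (median 5944) and from 5862 to 7954 in AAV-SIRT3 (median 6672). All AAV-GFP libraries were below all intact ones, as in 0.988% of all genes, and AAV-SIRT3 overlapped with both. Against intact, the log2 difference was -0.48 ± 0.10 with AAV-GFP (limma adjusted p = 0.0206) and -0.31 ± 0.10 with AAV-SIRT3 (adjusted p = 0.0379). The first was lost without intact replicate 3 or AAV-GFP replicate 2. The second was lost without any 1 of intact replicates 1, 3 and 5 or of AAV-SIRT3 replicates 1, 2, 3, 5 and 6, and its size dropped to -0.19 without intact replicate 1 (adjusted p = 0.0655). Sv2b, a paralog, ran from 7606 to 10332 in intact, 7977 to 9761 in AAV-GFP and 6819 to 10369 in AAV-SIRT3 libraries, with medians of 8819, 8651 and 8553. Its groups overlapped and its AAV-SIRT3 against intact difference was -0.03 (adjusted p = 0.834). Sv2a, the isoform found in most neurons, differed by 0.01 in the same comparison.

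Intact replicates 1, 3 and 5, which were low in thalamus markers, had the 3 highest values of Sv2c, at 12324, 8544 and 8463 normalised reads. The other 3 intact libraries were at 6783 to 7371, and the AAV-GFP libraries at 5279 to 6538. Replicates 1, 3 and 5 of intact also had the highest scores of 12 dopaminergic markers, at 0.38, 0.26 and 0.31. These scores are mean log2 levels relative to all libraries, and ran from -0.38 to -0.003 in AAV-GFP and -0.05 to 0.16 in AAV-SIRT3. The part of the dopaminergic score in the Sv2c values was not tested. With the thalamus score as a covariate, the Sv2c differences were -0.24 for AAV-GFP (limma adjusted p = 0.379) and -0.06 for AAV-SIRT3 (adjusted p = 0.737) against intact. With this covariate 4 of the 37 genes passed between AAV-SIRT3 and intact, Rab3a, Syngr3, Pclo and Unc13a, where 8.93% of all genes did. Of the 11 thalamus markers, 2 were higher in AAV-GFP and 9 in AAV-SIRT3 than in intact, with 0 at 0 in any group. Of all 19442 tested genes, 160 were higher in AAV-GFP and 2206 in AAV-SIRT3 than in intact.

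**Figure D3:**
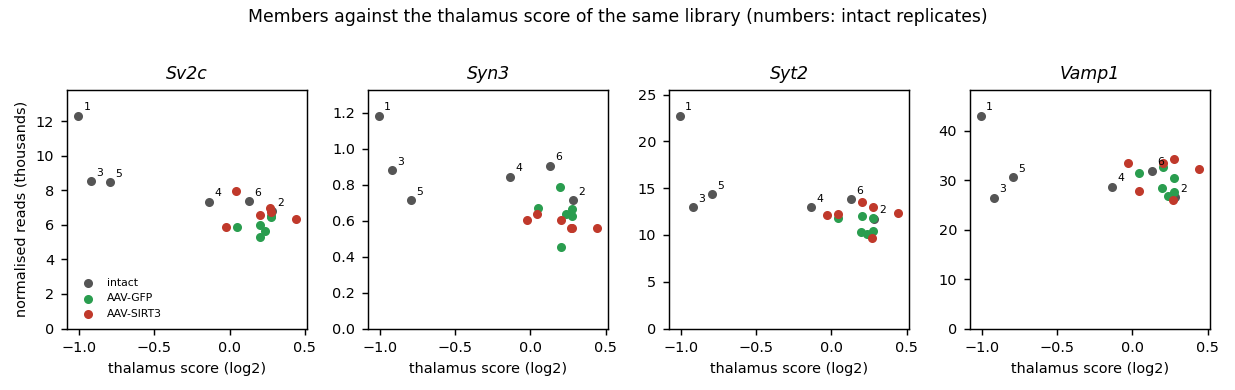
Normalised reads of Sv2c, Syn3, Syt2 and Vamp1 in each library (vertical axes, in units of 1000, from 0) against its thalamus score, the mean log2 level of 11 thalamus markers relative to the mean of all libraries. Numbers mark intact replicates; replicates 1, 3 and 5 lie at -1.01, -0.92 and -0.79, apart from the other 15 libraries, and replicate 1 is the highest library in each panel.

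Between AAV-SIRT3 and intact, where 21.7% of all tested genes passed, Pclo alone changed among the 7 genes of active zone and priming proteins. It ran from 13944 to 15876 normalised reads in intact libraries (median 15069), from 9429 to 14757 in AAV-GFP (median 12871) and from 10059 to 13621 in AAV-SIRT3 (median 11374). Intact lay wholly above AAV-SIRT3, as in 4.32% of all tested genes, and AAV-GFP reached from below the lowest AAV-SIRT3 library into the intact range. The log2 difference was -0.39 ± 0.08 for AAV-SIRT3 against intact (limma adjusted p = 0.0026), which passed in all 13 other settings and with each of the 18 libraries left out. For AAV-GFP against intact it was -0.26 ± 0.08 (adjusted p = 0.0844). Unc13b ran from 1375 to 1980 in intact, 1677 to 1866 in AAV-GFP and 1642 to 1860 in AAV-SIRT3 libraries, with medians of 1802, 1809 and 1797. Both virus groups lay inside its intact range, and its difference was 0.01 (adjusted p = 0.935). Unc13a, which encodes the main priming factor of excitatory synapses, and Erc2, a scaffold protein of the active zone, were each lower by 0.13 on the log2 scale against intact without passing (adjusted p = 0.0533 and 0.0861). The scaffold genes Bsn, Rims1 and Rims2 differed by -0.09, -0.03 and 0.10.

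Of the 6 genes of endocytosis and vesicle chaperones, Synj1 fell between AAV-SIRT3 and intact, where 10.3% of all tested genes were lower. Synj1, the phosphoinositide phosphatase synaptojanin-1 that acts in shedding clathrin coats and is mutated in an early-onset parkinsonism, ran from 23184 to 27680 normalised reads in intact (median 24476), from 19132 to 23552 in AAV-GFP (median 22498) and from 20179 to 23504 in AAV-SIRT3 libraries (median 22090). The groups met at the edge, with AAV-SIRT3 replicate 4 above the lowest intact library. Its log2 difference was -0.18 ± 0.05 for AAV-SIRT3 against intact (limma adjusted p = 0.0176), -0.17 and past no threshold with the thalamus score as a covariate (adjusted p = 0.116), and -0.16 ± 0.05 for AAV-GFP against intact (adjusted p = 0.1). Sh3gl2, which encodes the synaptojanin partner endophilin A1, ran from 13335 to 15895 in intact, 13963 to 15720 in AAV-GFP and 13199 to 17034 in AAV-SIRT3 libraries, with medians of 14709, 14748 and 14000. Its groups overlapped, with a difference of -0.02 (adjusted p = 0.842). The fission GTPase gene Dnm1, the auxilin gene Dnajc6, the vesicle chaperone gene Dnajc5 and Amph, which encodes amphiphysin, differed by -0.03, -0.09, -0.01 and -0.04 against intact.

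**Figure D4:**
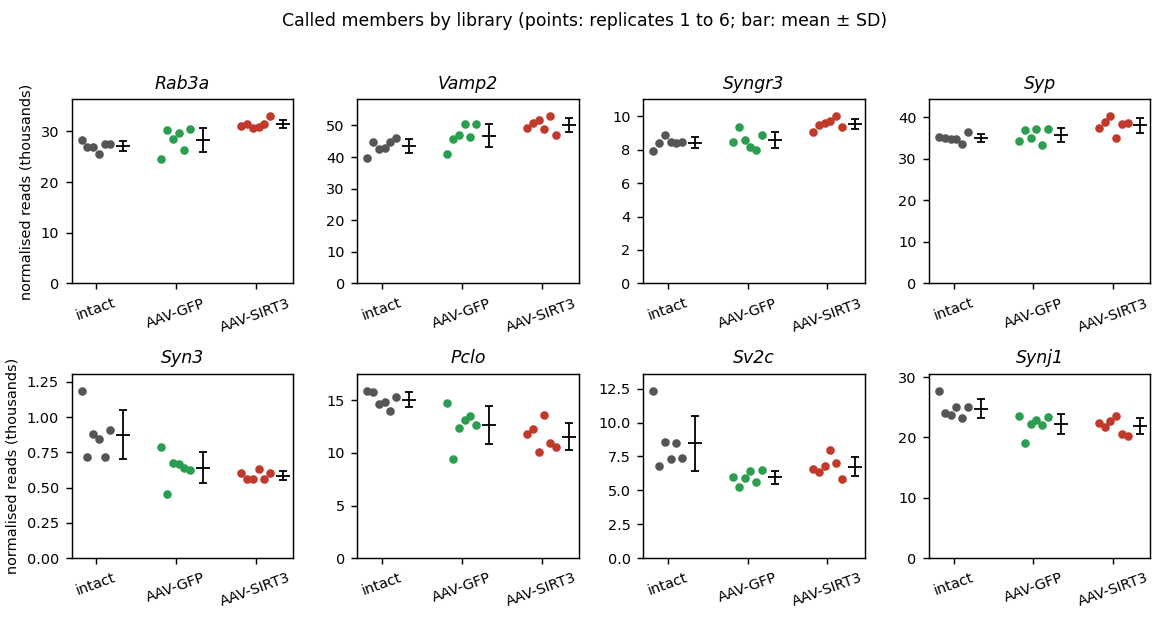
Normalised reads (vertical axes, in units of 1000, from 0) of the 8 genes that passed a threshold, by group; each point is a library and the bars beside them are means ± SD of 6. In the upper row Rab3a, Vamp2 and Syngr3 have all AAV-SIRT3 points above all intact points and Syp has 1 within the intact range. In the lower row Syn3 and Pclo have all AAV-SIRT3 points below intact, and Sv2c and Synj1 overlap. Of all tested genes, 5.01% lay wholly above intact and 4.32% wholly below with AAV-SIRT3.

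Each gene that rose had shorter merged exons than each gene that fell. The 4 genes that rose have merged exons of 2071 bp (Syngr3), 2226 bp (Rab3a), 3809 bp (Vamp2) and 5211 bp (Syp), and the 4 that fell have 8085 bp (Synj1), 9700 bp (Sv2c), 12282 bp (Syn3) and 22457 bp (Pclo). Across the 37 genes, Spearman's correlation between log2 difference and exon length was -0.61 when AAV-SIRT3 was set against intact, -0.50 when AAV-GFP was, and -0.57 between the virus groups. Across 18824 tested genes with a length it was -0.22, -0.16 and -0.16, a description over genes that share the libraries. With all genes split into 3 classes by length, among the shortest 16.4% were higher and 4.92% lower in AAV-SIRT3 than in intact, and among the longest 4.69% were higher and 20.3% lower. Unc13b, at 22746 bp the longest of the 37, differed by 0.01.

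Libraries differed in this respect within groups as well as between them. The correlation of a gene's level, relative to its mean over libraries, with exon length was 0.062 to 0.166 in intact, -0.300 to 0.105 in AAV-GFP and -0.286 to -0.023 in AAV-SIRT3 libraries, and AAV-GFP replicate 2 was the lowest of the 18. With the length trend of each library removed, 6 of the 37 rose and 2 fell between AAV-SIRT3 and intact, where 9.69% of 18824 genes were higher and 7.38% lower. Rab3a, Vamp2, Syp, Syn3 and Pclo passed on both scales with their signs, Rab3a at 0.14 and Pclo at -0.19. Syngr3 (0.10, limma adjusted p = 0.0521), Synj1 (-0.12, adjusted p = 0.0583) and Sv2c (-0.22, adjusted p = 0.131) no longer passed, and Syt1 (0.17), Syn2 (0.14) and Rims2 (0.20) passed as higher. The part of this trend in the changes was not tested further.

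**Figure D5:**
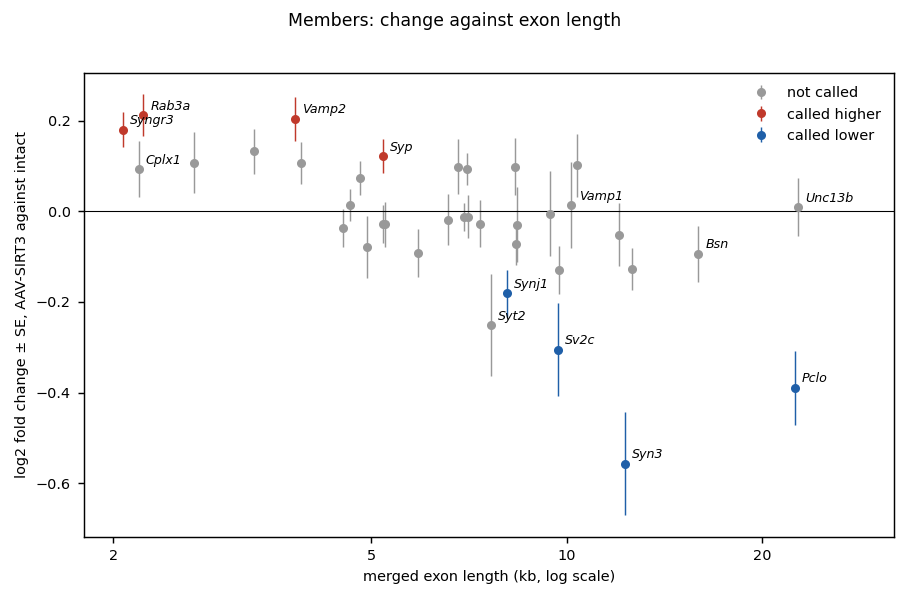
Log2 fold change of AAV-SIRT3 against intact (vertical axis, ± SE from limma) against merged exon length in kb (horizontal log axis) for the 37 genes. The 4 genes called higher are at most 5211 bp long and the 4 called lower at least 8085 bp; Unc13b, at 22746 bp, sits at 0.01.

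Ratios of paralogs within a library do not depend on its size factor, and 13 pairs were compared in the 3 comparisons by exact two-sided permutation tests, adjusted over 39. A pair of ratios passed, each with the smallest p that 6 against 6 libraries can give (0.00216, adjusted p = 0.0422). Their paralogs differ in merged exon length, with 15938 bp for Bsn and 22457 bp for Pclo, and 4636 bp for Sv2a and 9700 bp for Sv2c. The part of exon length and of the thalamus score in these ratios was not tested. The ratio of Bsn to Pclo, the large active zone scaffolds, ran from 0.618 to 0.738 in intact and 0.754 to 0.984 in AAV-SIRT3 libraries, a log2 difference of 0.30 with the AAV-SIRT3 library higher in 36 of 36 pairs. In AAV-GFP it ran from 0.650 to 0.911, across both. The ratio of Sv2a to Sv2c ran from 3.40 to 5.71 in intact and 5.94 to 7.29 in AAV-GFP libraries, a log2 difference of 0.43 with the AAV-GFP library higher in 36 of 36 pairs. In AAV-SIRT3 it ran from 5.05 to 6.44, with a difference of 0.32 against intact (exact permutation test, adjusted p = 0.141). Ratios of Rab3a to Rab3c (0.26) and Syngr1 to Syngr3 (-0.11) in AAV-SIRT3 against intact, and of Rims1 to Rims2 (-0.14) in AAV-GFP against intact, did not pass (exact permutation test, adjusted p = 0.135 each). Without any 1 library the Bsn to Pclo difference was 0.25 to 0.33 and the Sv2a to Sv2c difference 0.33 to 0.48. These are given without a test, because 5 against 6 libraries raise the smallest possible p, whatever the size of the difference.

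Other genes that changed also share exon bases with genes on the opposite strand. Rab3a shares 29 exon bases with Mpv17l2 on the opposite strand, and Mpv17l2 was higher in AAV-SIRT3 than in intact by 0.38 on the log2 scale (limma adjusted p = 0.0019), with means of 964 and 741 normalised reads. Syp shares 875 bases with Gm14703, an antisense transcript at a mean of 53.6 to 60.8 normalised reads, and Synj1 shares 60 bases with 4930404I05Rik, at a mean of 65.3 to 79.3. Neither partner passed in any comparison. Pclo overlaps with the antisense genes Gm26918 and Gm26954 over 429 and 496 bases.

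In a wider list of 83 presynaptic genes that excludes the 37, 13 rose and 10 fell between AAV-SIRT3 and intact, beside 11.3% and 10.3% of all tested genes. The rises were led by Ap2s1, a subunit of the clathrin adaptor AP-2 (0.28), Syt9, a synaptotagmin (0.26), Syngr2, a synaptogyrin (0.25), the clathrin light chain gene Clta (0.22) and Atp6v0d1, a subunit of the vesicular proton pump (0.18). The falls were led by Stxbp5l, a tomosyn that restrains SNARE assembly (-0.76), Syt10 (-0.49), the scaffold adaptor gene Lin7a (-0.32), Rab3gap2, a subunit of the Rab3 GTPase-activating complex (-0.27), and the dense-core vesicle priming factor gene Cadps2 (-0.24), all log2 differences. Between AAV-GFP and intact 1 of 83 passed, Cadps2, lower by 0.29 on the log2 scale (limma adjusted p = 0.0298). Between AAV-SIRT3 and AAV-GFP 0 passed. Of 18 pan-neuronal genes, 5 rose and 2 fell between AAV-SIRT3 and intact, and their summed level ran from 515450 to 553856 normalised reads in intact, 497508 to 538516 in AAV-GFP and 507804 to 542247 in AAV-SIRT3 libraries. The summed level of the 37 genes themselves ran from 886673 to 998488 in intact, 880920 to 942585 in AAV-GFP and 902433 to 993418 in AAV-SIRT3 libraries, ranges that overlapped.

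Markers of other cells moved beside these genes. Of 12 microglial markers 5 were higher in AAV-GFP and 7 in AAV-SIRT3 than in intact, with summed levels of 21991 to 24497 normalised reads in intact, 24253 to 30852 in AAV-GFP and 24788 to 29442 in AAV-SIRT3. Of 10 endothelial markers 1 rose and 4 fell between AAV-SIRT3 and intact, and of 12 dopaminergic markers 2 fell between AAV-GFP and intact. Among all 19442 tested genes, 160 rose and 198 fell between AAV-GFP and intact, and 2206 rose and 2008 fell between AAV-SIRT3 and intact. No marker of these lists was at 0 in a whole group. Their part in the changes of the vesicle genes was not tested.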

How the data were processed

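Stranded poly-A libraries of nigral tissue from 18 mice, 6 per group, were read as 100 bp pairs, per the labels' protocols. The deposited unit is a signal: HTSeq counts that the authors normalised with DESeq2, as the table is named. HISAT2 2.1.0, DESeq2 1.34.0 and mm10 are named in the submitters' processing notes; annotation and strand setting are not given in the sources used here. Each column was a set of whole reads divided by 1 size factor (100% whole within 1e-06 of a read), and the steps are a weaker sign in intact replicate 4 and AAV-SIRT3 replicate 4, whose factors are near 1. All 18 columns were matched and 0 were left over. A row without a gene name, at most 0.000289% of a library's reads, was left out. Replicates differed beyond sampling noise (8.27 to 36.6 in chi-square over its degrees of freedom), and each mouse counted as 1 sample.

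The 19442 genes that reached 10 normalised reads in 6 or more libraries were tested with limma 3.58.1 (R 4.3.3) on log2(value + 1), which understates the change of low genes, in 1 model of 3 groups with a variance trend and 15 residual degrees of freedom. The procedure was tested on simulated data. The genes, lists and tests were chosen with earlier results of these data known. Ranges per group are given for genes past the threshold and for the genes with the smallest and largest p of each role. From the wider list, up to 5 of the largest rises and falls past the threshold are named. Other settings were quantile normalisation or TMM factors, a pseudocount of 0.5 or 10, no filter beyond a value above 0, a filter at a mean of 50, count models on whole reads (DESeq2 1.42.0, edgeR 4.0.16), only the 2 groups compared, a replicate block, thalamus and pan-neuronal scores, removal of the length trend, an adjusted p under 0.1, and leaving out each library. Positions and merged exon lengths are from GENCODE M21 (GRCm38, the build of mm10), matched by symbol.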

Additional observations from a re-analysis of the deposited data

Results flagged for a closer look

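Single libraries that stood apart from the other 5 of their group were sought in all 111 combinations of the 37 genes and 3 groups, by the share of the group's range taken by the gap to the nearest library (Dixon's ratio above its 95% critical value for 6 libraries). Chance gives about 1 in 20, or 5.55, and 11 were found. Intact replicate 1 held 4 of them: it was highest for Sv2c at 12324 normalised reads (nearest 8544), for Syt2, the fast calcium sensor, at 22751 (nearest 14346) and for the vesicle SNARE gene Vamp1 at 43054 (nearest 31935). It was lowest for Stx1a, a SNARE of the plasma membrane, at 1357 (nearest 1724). This library also had the lowest thalamus score, -1.01.

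AAV-SIRT3 replicate 6 held 3: Rab3a was highest there at 32990 (nearest 31402), and Rab3c, its longer paralog, and the active zone gene Rims2 were lowest at 35248 (nearest 43374) and 5853 (nearest 6939). Its correlation of level with exon length was -0.286, the lowest of the AAV-SIRT3 group. The other 4 were Syt2 in AAV-SIRT3 replicate 5, lowest at 9682 (nearest 12116), Syt11 in AAV-SIRT3 replicate 3, highest at 54232 (nearest 50308), Syngr1 in intact replicate 5, lowest at 22011 (nearest 22548), and Synj1 in AAV-GFP replicate 2, lowest at 19132 (nearest 22120). That AAV-GFP library had the lowest correlation with exon length of all 18, -0.300. The part of these library properties in the values was not tested.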

How the results depend on the processing

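Across the alternatives none of the 37 genes changed sign from a called value in any of the 3 comparisons. For AAV-SIRT3 against intact, 8 genes were called, beside 4214 of all 19442 tested genes. With the thalamus score as a covariate 4 were called, beside 1737 of all genes. Vamp2, Syn3, Syp, Sv2c and Synj1 were lost there and Unc13a was gained. DESeq2 called 11, beside 4618 of all genes. Leaving out each library in turn gave 6 to 10, beside 3279 to 4633 of all genes. An adjusted p under 0.1 gave 12, beside 5758 of all genes. For AAV-GFP against intact, 2 were called, beside 358 of all 19442 genes, and numbers in brackets below count all genes called. The count was 1 with all genes above 0 tested (164 of 38539) and 1 with the length trend removed (287 of 18824). It was also 1 with only the 2 groups fitted (199) and 0 with the thalamus score (32). The pan-neuronal score gave 3 (531), DESeq2 gave 3 (999) and an adjusted p under 0.1 gave 4 (1144). Leaving out each library gave 0 to 4 (129 to 686). The count was 0 without intact replicate 3 (129) or AAV-GFP replicate 2 (168), and 4 without intact replicate 2 (462). For AAV-SIRT3 against AAV-GFP, 0 were called (22 of all genes) and DESeq2 called 2 (309). Leaving out each library gave 0 to 3, with 3 without AAV-GFP replicate 2 (861 of all genes). The cause was not tested. With the replicate number as a block, 8, 2 and 0 were called in the same order, beside 3923, 372 and 13 of all genes. The labels tie the numbers to nothing shared, and the deviations of same-numbered libraries correlated at -0.095 to 0.175. Rab3a and Pclo passed against intact in all 13 other settings and all 18 fits without a library. Unc13a, which did not pass in the reported fit, passed with TMM factors, quantile normalisation, a mean of at least 50, the thalamus score, edgeR and DESeq2. With 6 mice per group and values from 452 normalised reads upward, the spread between mice and not counting error limits the precision.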
